A study of Mus musculus with 21 samples.

Results

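Map3k14 encodes NIK, the kinase at the centre of the noncanonical NF-kB pathway, and 1 of its probes separated the colon arrays labelled GF Card9-/-, where it was brighter, from the GF WT arrays at day 0. The 10 genes described here are Map3k14 and 9 other genes of this pathway, namely the receptors Ltbr, Cd40 and Tnfrsf13c, the adaptor Traf3, the ubiquitin ligases Birc2 and Birc3, the kinase Chuk and the NF-kB subunits Nfkb2 and Relb. They were chosen by the difference of the Map3k14 probe between the labels at day 0, so that difference is given as a description with no test. All 10 genes are on both array designs, with 22 probes among 24813 named genes at day 0 and 15 probes among 22372 named genes at day 7, and every one of these probes was detected often enough to be tested. The question was whether the Map3k14 difference extends to the other probes of the gene or to the rest of the pathway, within each day.

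Male germ-free (GF) C57BL/6J mice, either wild type (WT) or lacking Card9 (Card9-/-), gave total colon RNA, hybridized to single-color Agilent arrays with 1 sample each. At day 0, before dextran sulfate sodium (DSS, which injures the colon epithelium), 7 arrays are labelled GF Card9-/- and 6 GF WT, and at day 7, after 2% DSS in drinking water for 7 days, 4 arrays carry each label. The ages of the mice are not given in the sources used here. The days were measured on different array designs, so levels are compared only within a day. The labels do not say how the numbers 2 and 2.1 of the day 7 GF Card9-/- arrays relate, and the SD of their log2 difference over probes was 0.85, within the range of 0.73 to 0.91 of the 5 other pairs with that label, so they were counted as separate samples.

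In the noncanonical pathway, receptors of the tumor necrosis factor receptor family, such as the lymphotoxin beta receptor, CD40 and the BAFF receptor, recruit a complex of TRAF and cIAP proteins that otherwise marks NIK for destruction. NIK then accumulates and activates IKKalpha, the product of Chuk, which drives processing of the p100 precursor made from Nfkb2 into p52, the partner of RelB. The pathway is known for building lymphoid organs, including the lymphoid follicles of the gut, and for the survival of B cells. NIK is held low by protein turnover, which RNA levels do not measure.

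Card9, the gene that the labels name as deleted, was measured first, and its level went against the labels. At day 0 its brightest probe lay between 8.71 and 9.24 normalized log2 signal on the 7 arrays labelled GF Card9-/- and between 2.30 and 2.33 on the 6 labelled GF WT, where no array had it well above background. The other Card9 probe of that design lay between 6.75 and 7.51 and between 2.85 and 3.77, respectively. At day 7 the 4 arrays labelled GF Card9-/- lay between 7.93 and 8.57 and GF WT replicates 4, 5 and 6 between 2.38 and 2.41, while GF WT replicate 1 was at 7.85. The deleted part of the gene is not given in the sources used here. Every difference below is therefore the mean of the arrays labelled GF Card9-/- minus that of the arrays labelled GF WT, and which genotype is the higher is not settled by these data. Gapdh, a gene of glycolysis used as a reference, differed by -0.045 ± 0.041 (SE) at day 0 and 0.045 ± 0.11 at day 7 on the log2 scale. Among the marker lists, the colonocyte and epithelium genes were well above background on every array of both days. The share of spots well above background ranged over the arrays from 54.5% to 64.9% at day 0 and from 42.2% to 57.1% at day 7. Transcripts of pancreas were bright on 1 day 0 array (GF Card9-/- replicate 7) and 2 day 7 arrays (GF Card9-/- replicates 2.1 and 6), small intestine markers were highest on GF WT day 0 replicate 6 (a summed signal of 5920 against 647 to 1550 on the other day 0 arrays), and no tested gene of the 11 marker lists passed the threshold on either day. The summed signal of the 5 pancreas markers was 1021360 on that day 0 array, 614 to 825 on the others labelled GF Card9-/- and 164 to 797 on those labelled GF WT. At day 7 it was 13227 and 206419 on replicates 2.1 and 6, 99 and 246 on the others labelled GF Card9-/- and 101 to 175 on those labelled GF WT.

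Map3k14 lies on the minus strand of chromosome 11 and was read by 3 probes at day 0 and by 2 of these at day 7, each of 60 bases. The 5′ probe, the one that differed, starts at base 437 of the transcript NM_016896, in the coding sequence near its beginning, at chr11:103101069-103101128 of the NCBI37 (mm9) build. Its sequence, the same on both designs, is shown because the difference was seen with these bases and not with those of the other probes of the gene:

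Map3k14 5′ probe: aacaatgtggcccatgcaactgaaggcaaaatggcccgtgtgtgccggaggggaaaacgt

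The middle probe, present at day 0 only, lies 2.61 kb downstream at chr11:103098461-103098520 and is annotated to ENSMUST00000152300, a transcript that the 5′ probe also matches. The 3′ probe lies 19.82 kb downstream of the 5′ probe at chr11:103081249-103081308, at base 3942 of NM_016896. Both NM_016896 and ENSMUST00000021324 are annotated to the 5′ and the 3′ probe. The 5′ probe has 55.0% G and C, the middle probe 56.7% and the 3′ probe 41.7%. All 3 were well above background on every array, and none shared its sequence with another probe of its design.

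At day 0 the 5′ probe read 7.27, 7.56, 7.25, 7.46, 7.43, 7.38 and 7.45 normalized log2 signal on the arrays labelled GF Card9-/-, replicates 1 to 7. On the GF WT arrays, replicates 1 to 6, it read 6.04, 6.06, 6.17, 6.19, 6.16 and 6.17. Every array labelled GF Card9-/- was therefore brighter than every array labelled GF WT, with an SD of 0.11 and 0.065 within the labels. The difference was 1.27, or 2.41-fold, and this is the value that chose the genes described here. Before normalization the processed signal of the probe was between 129 and 209 on the arrays labelled GF Card9-/- and between 46.5 and 101 on those labelled GF WT. Split by slide, all 4 of which held both labels, the difference was 1.42, 1.29, 1.19 and 1.23, and split by scan session it was 1.33 and 1.21. With no overlap between the labels these splits could only be above 0, so they describe its size and are no further evidence of it.

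The other Map3k14 probes did not share this difference at day 0. The middle probe read between 7.67 and 8.21 (median 7.86) on the arrays labelled GF Card9-/- and between 7.37 and 8.15 (median 7.99) on those labelled GF WT, and the 3′ probe between 8.74 and 9.29 (median 9.00) and between 8.86 and 9.25 (median 9.07). The labels overlapped at both probes. Neither difference passed the threshold: it was 0.00 for the middle probe (95% interval -0.28 to 0.28, limma adjusted p = 0.999) and -0.025 for the 3′ probe (-0.25 to 0.20, adjusted p = 0.988). Both intervals end well below the 1.27 of the 5′ probe. A comparison within each array, which needs no scaling between arrays and was chosen after the data were seen, set the 5′ probe against each of the others. The log2 ratio of the 5′ to the 3′ probe lay between -1.96 and -1.27 on the arrays labelled GF Card9-/- and between -3.04 and -2.67 on those labelled GF WT, a difference of 1.23. Against the middle probe it lay between -0.82 and -0.26 and between -2.06 and -1.16, a difference of 1.24. Both ratios contain the 5′ values that chose the genes, so they restate that difference on a scale within arrays and are no further evidence of it.

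Day 7 came from other arrays and another design, so the 5′ probe could be tested there. It read 6.74, 6.66, 7.27 and 7.33 on GF Card9-/- replicates 2, 2.1, 4 and 6 and 6.35, 6.31, 6.44 and 6.11 on GF WT replicates 1, 4, 5 and 6. All 4 arrays labelled GF Card9-/- were brighter than the 4 labelled GF WT, and GF WT replicate 1, whose Card9 level was like that of the arrays labelled GF Card9-/-, read like the other GF WT arrays at this probe. The difference was 0.70 ± 0.19 (SE), 1.62-fold with a 95% interval of 1.20 to 2.19. It did not pass the threshold over all probes (limma adjusted p = 0.913). Unadjusted, limma gave p = 0.0067, and an exact permutation test (two-sided) gave p = 0.0286, which is as low as 4 arrays against 4 can go. Over all 44643 probes tested at day 7, 2.13% did not overlap between the labels and 3.38% had an unadjusted p under 0.05, and the threshold was passed by 0%. The 2 slides that held both labels gave 0.63 and 0.35, and the difference was 0.71 without GF WT replicate 1. It was also 0.70 without the 2 arrays rich in pancreas transcripts. No gene of the 11 marker lists passed the threshold at day 7, but the median difference of a list was above 0 for all but small intestine (-0.55) and smooth muscle (-0.48). It was 1.45 for adipocyte (summed signal 10800 to 46600 against 5360 to 26400), 0.75 for T cell (1510 to 3100 against 1100 to 1780), 0.56 for B cell and 0.28 for colonocyte markers. Among the neutrophil markers, Ly6g, well above background on every array, differed by 0.059, while S100a8, S100a9 and Retnlg differed by 1.46, 1.65 and 1.66. These were well above background on 0, 1 and 0 of the 4 arrays labelled GF WT and on 1, 4 and 2 of the 4 labelled GF Card9-/-, so the sizes of their differences are uncertain. The part of these cell types in the difference of the 5′ probe was not tested.

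The 3′ probe at day 7 read 9.31, 9.17, 9.57 and 9.35 on the arrays labelled GF Card9-/- and 9.49, 9.18, 9.28 and 9.08 on those labelled GF WT. The labels overlapped, and the difference of 0.09 (95% interval -0.23 to 0.41) did not pass the threshold (limma adjusted p = 0.934). Within each array, the log2 ratio of the 5′ to the 3′ probe was between -2.59 and -1.92 on the arrays labelled GF Card9-/-. It was between -3.13 and -2.76 on those labelled GF WT, with no overlap and a difference of 0.58. The two-sided exact permutation p of 0.0286 is again as low as these arrays can go. Like the day 0 ratios, this ratio was chosen after the data were seen. It contains the day 7 values of the 5′ probe tested above, so it restates that difference within arrays and is no further evidence of it. The 5′ difference was smaller at day 7 than at day 0 by 0.57 ± 0.16 (SE) in a joint fit of both days. That value has no test here because its day 0 value chose the probe. For the same reason the day 0 value may be too large, and the days also differ in array design. The part of these in the smaller difference was not tested.

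**Figure D1:**
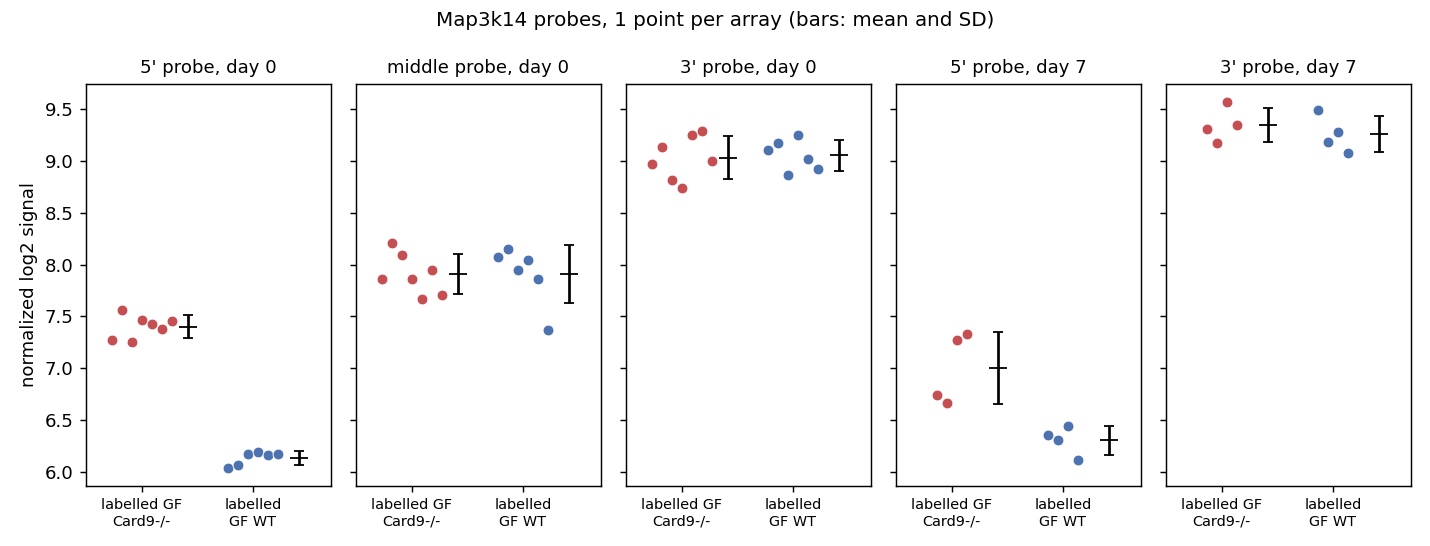
Normalized log2 signal (vertical axis) of the Map3k14 probes on every array, with 1 panel per probe and day, 1 point per array and bars for the mean and SD of each label. The labels are apart at the 5′ probe on both days (7.25 to 7.56 against 6.04 to 6.19 at day 0, and 6.66 to 7.33 against 6.11 to 6.44 at day 7) and overlap at the middle and 3′ probes. Heights are not comparable between probes.

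The 9 other members had differences on both sides of 0, none of which passed the threshold. At day 0 their differences at the brightest probe of each gene ran from -0.58 to 0.13 (median -0.012, against a median of 0.015 over all tested probes), 3 above and 6 below 0. At day 7 they ran from -0.17 to 0.43 (median 0.13, against 0.0013 over all tested probes), 5 above and 4 below 0. At day 0, 0 of 9 passed the adjusted threshold of 0.05 in limma, where 0.0253% of all 47410 tested probes did, and 0 of 9 had an unadjusted p under 0.05, where 5.84% of all did. No member other than Map3k14 had labels that did not overlap at day 0, where 0.458% of all probes did. At day 7 the same 3 counts were 0 of 9, where 0%, 3.38% and 2.13% of all probes met them. So few of all probes met these criteria that counts of 0 among 9 genes say little of the members, and the intervals of the single genes carry the comparison. Counting every probe, 0 of 19 at day 0 and 0 of 13 at day 7 were past the threshold, with a smallest adjusted p of 0.912 and 0.913.

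The receptors differed from each other in how much they varied between arrays. Ltbr, the lymphotoxin beta receptor, read between 13.08 and 13.49 on the day 0 arrays labelled GF Card9-/- and between 12.63 and 13.39 on those labelled GF WT, a difference of 0.13 (95% interval -0.12 to 0.39). Its day 7 range was 12.63 to 12.89 and 12.29 to 13.01, with a difference of 0.13 (-0.25 to 0.52). Tnfrsf13c encodes the BAFF receptor of B cells, and it varied widely among the day 0 arrays. Its brightest day 0 probe read 5.08, 6.75, 5.19, 2.73, 7.25, 9.86 and 6.77 on the arrays labelled GF Card9-/- and 6.85, 9.53, 6.08, 8.48, 5.81 and 4.16 on those labelled GF WT, in the order of their numbers. It was well above background on 6 of 7 and 5 of 6 of these arrays. High and low arrays were present under both labels, and the difference was -0.58 with a 95% interval of -2.98 to 1.81. It was -1.19 without GF Card9-/- replicate 6 and -4e-04 without GF Card9-/- replicate 4, where the probe was not well above background. The lowest value over all the alternatives listed below was -2.05. At day 7 another probe of the gene read 9.08, 4.71, 5.5 and 7.48 against 8.30, 4.72, 6.45 and 5.56, a difference of 0.43 (-2.20 to 3.07), which was -0.36 without GF Card9-/- replicate 2 and 1.11 without GF WT replicate 1. The highest value over all the alternatives at day 7 was 1.75. The second Tnfrsf13c probe, shared by both designs, was well above background at day 7 on 0 of 4 GF WT arrays and on 1 of 4 labelled GF Card9-/-, so no fold is given for it there. Cd40, a receptor of B cells and antigen-presenting cells, read between 3.69 and 6.43 on the arrays labelled GF Card9-/- and between 4.03 and 6.22 on those labelled GF WT at day 0, where it was well above background on 4 of 7 and 4 of 6 arrays. Its difference was -0.27 (-1.23 to 0.70), between -0.53 and -0.032 with each array left out and between -0.8 and 0.14 over all the alternatives listed below. At day 7 a different Cd40 probe read 7.31, 5.38, 6.72 and 6.87 against 6.64, 6.30, 6.77 and 6.03, a difference of 0.13 (-0.83 to 1.1) that was -0.11 without GF Card9-/- replicate 2 and 0.53 without replicate 2.1.

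These arrays also differed in B cell transcripts. The summed processed signal of 6 B cell markers (Ms4a1, Cd79a, Cd79b, Pax5, Fcer2a and Cr2) ran from 391 to 11600 on the day 0 arrays labelled GF Card9-/- and from 355 to 8360 on those labelled GF WT, and 4 of the 6 were well above background on every array. At day 7 it ran from 890 to 8620 and from 968 to 4020, with 5 of the 6 well above background on every array. The 3 day 0 arrays highest in Tnfrsf13c (GF Card9-/- replicate 6 and GF WT replicates 2 and 4) were the 3 highest in this sum, and the same 3 arrays were highest in Cd40. At day 7 the 3 arrays highest in Tnfrsf13c (GF Card9-/- replicates 2 and 6 and GF WT replicate 1) were again the 3 highest in the sum, and 2 of the 3 highest in Cd40 were among them. The ranking was not particular to B cells. The same 3 day 0 arrays were also highest in the summed T cell markers (8694, 3825 and 3537, in that order). They were highest in the summed macrophage and dendritic cell markers too (53162, 69347 and 66724). At day 7 GF WT replicate 1 was not among the 3 highest in either of these sums. The B cell genes are of the same arrays as the receptors, their part in the spread of Tnfrsf13c and Cd40 was not tested, and in whole colon fewer cells of a type and less RNA per cell cannot be told apart.

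**Figure D2:**
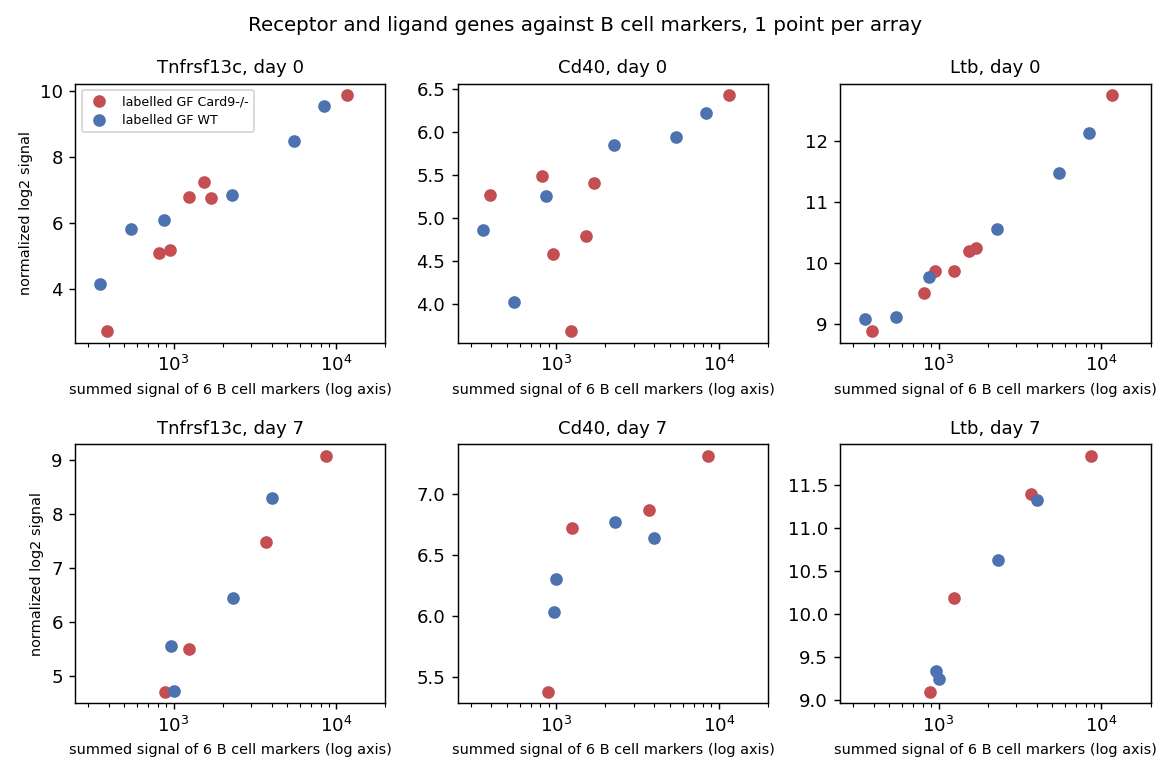
Normalized log2 signal of Tnfrsf13c, Cd40 and the ligand gene Ltb (vertical axes) against the summed processed signal of 6 B cell markers (horizontal log axis), with 1 point per array, day 0 above and day 7 below. Low and high sums of the B cell markers are present under both labels, and at day 0 the 3 arrays with the highest sums are highest in all 3 genes. These 3 arrays are also highest in the summed T cell and the summed macrophage and dendritic cell markers.

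The products of the adaptor and ligase genes form the complex that holds NIK low. Traf3 encodes the adaptor that binds NIK, and it read between 11.55 and 11.93 against 11.55 and 11.82 at day 0, a difference of -0.01 (95% interval -0.16 to 0.14). Its day 7 difference was 0.13 (-0.27 to 0.52), and -0.20 within the 2 slides that held both labels. Birc2, for the ubiquitin ligase cIAP1, read 8.93 to 9.37 against 9.01 to 9.24 at day 0 and differed by 0.03 (-0.14 to 0.20). After DSS the difference was -0.025 (-0.48 to 0.43), and 0.28 within the 2 slides that held both labels. Birc3, for cIAP2, differed by -0.13 (-0.44 to 0.18) at day 0, and its 4 day 0 probes gave differences between -0.18 and -0.043. At day 7 Birc3 spread over more than 1 log2 unit within each label (9.32, 8.54, 7.89 and 8.48 against 9.04, 7.96, 9.40 and 8.33), with high and low arrays under both labels, and its difference of -0.13 had an interval of -1.07 to 0.82. It was -0.38 without GF Card9-/- replicate 2, 0.11 without GF WT replicate 5 and 0.79 within the 2 slides that held both labels.

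Chuk, which encodes the kinase IKKalpha that NIK activates, was among the steadiest members at day 0. It read 13.01 to 13.21 on the arrays labelled GF Card9-/- and 13.05 to 13.31 on those labelled GF WT at day 0, a difference of 0.00 (95% interval -0.13 to 0.12). On the day 7 arrays it read 12.24, 12.30, 12.44 and 12.25 against 12.06, 12.31, 11.59 and 12.27, where GF WT replicate 5 was the lowest array, and the difference was 0.25 (-0.16 to 0.66). It was 0.098 without that array and -0.017 within the 2 slides that held both labels. Nfkb2, the source of p100 and p52 and itself known as a target of NF-kB, read 11.43 to 11.79 against 11.52 to 11.73 at day 0 and differed by 0.01 (-0.12 to 0.14). At day 7, where it was read by another probe, it differed by -0.03 (-0.44 to 0.38), and by 0.24 within the 2 slides that held both labels. Relb read 12.00 to 12.43 against 12.21 to 12.62 at day 0, a difference of -0.11 (-0.32 to 0.097), and -0.17 (-0.75 to 0.40) at day 7, where it was 0.041 without GF WT replicate 1 and 0.32 within the 2 slides that held both labels. At day 0 the intervals of 7 of the 9 genes lay within 0.5 log2 units of 0, and at day 7 those of 2 did. A difference in the direction of the 5′ probe and as large lay inside the interval of Tnfrsf13c at day 0 (1.27) and of Tnfrsf13c, Cd40 and Birc3 at day 7 (0.70). It was therefore not excluded for these genes, and it lay outside the intervals of the other members. A true difference of that size could still have missed the threshold, as the 0.70 of the 5′ probe did at day 7.

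**Figure D3:**
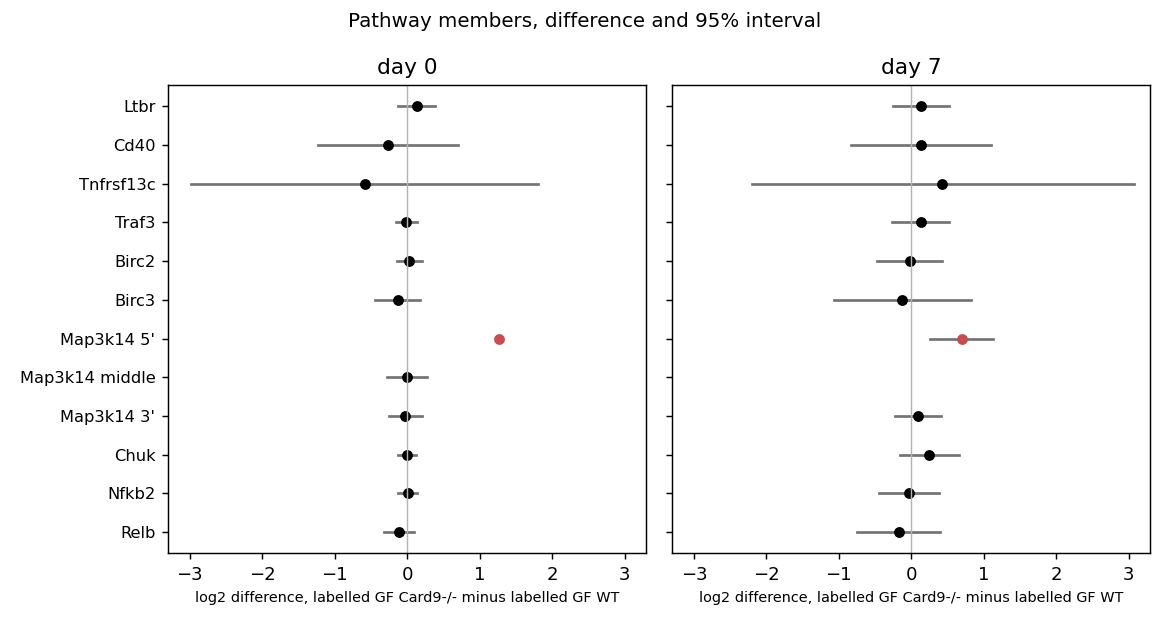
Difference between the labels (log2, labelled GF Card9-/- minus labelled GF WT, horizontal axis) with its 95% interval for the Map3k14 probes and the brightest probe of each other member (the 5′ probe at day 0, which chose the genes, without one), day 0 on the left and day 7 on the right. The 5′ probe (red) is at 1.27 and 0.70, the other Map3k14 probes are between -0.025 and 0.092, and the intervals of all other members include 0.

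The label differences of the members were also set between the days. Of the 23633 probes on both designs that were detected at both days, 13 were named for a member at day 0. Apart from the 5′ probe, 0 of these differed between the days past the threshold in limma, as did 0% of all 23633. The second Birc2 probe had an unadjusted p of 0.018 and an adjusted p of 0.582, with the difference lower at day 7 by 0.65 ± 0.25 (SE). This probe was named for Birc2 on the day 0 design only and was not well above background on every array.

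The other genes of the pathway, 41 in 5 lists, gave no call either. The ligands (Tnfsf13b, Lta, Ltb, Tnfsf14, Cd40lg, Tnfsf11 and Tnfsf12) had a median difference of -0.28 at day 0 over the 6 that were tested, with 0 of 6 past the threshold, and 0.16 at day 7, again with 0 of 6. Tnfsf13b, which encodes BAFF, the ligand of the BAFF receptor, read 7.63 to 8.0 (median 7.87) on the arrays labelled GF Card9-/- and 7.88 to 8.30 (median 8.17) on those labelled GF WT at day 0. The labels overlapped, and the difference of -0.27 ± 0.085 (SE) did not pass the threshold (limma adjusted p = 0.541). The day 7 difference was -0.34 ± 0.23 (adjusted p = 0.913). Ltb, a subunit of the ligand of the lymphotoxin beta receptor, ranged over 3.87 log2 units at day 0 and was highest on the 3 arrays with the most B cell marker signal, with a difference of -0.16 (95% interval -1.59 to 1.26). Its day 7 difference was 0.49 (-1.20 to 2.18).

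The other receptors (Tnfrsf11a, Tnfrsf12a, Tnfrsf1b, Tnfrsf13b, Tnfrsf17 and Tnfrsf14) had a median difference of -0.075 over 6 tested genes at day 0 and 0.42 over 5 at day 7, with 0 past the threshold on either day. At day 7, 2 of the 5 had an unadjusted p under 0.05, where 3.38% of all tested probes did, Tnfrsf14 (0.42, adjusted p = 0.913 in limma) and Tnfrsf1b (0.57, adjusted p = 0.913). These were named after their values were seen, and at day 0, where other probes read them, they differed by -0.20 and 0.05. The labels did not overlap for Tnfrsf14 at day 7, as for 2.13% of all probes. Among the regulators of NIK and the adaptors (Traf2, Traf1, Traf5, Otud7b, Nlrp12, Tbk1, Fbxw7 and Map3k7) the median was 0.024 at day 0 (0 of 7 past the threshold) and 0.062 at day 7 (0 of 8). Traf2, which brings the cIAP ligases to TRAF3, differed by 0.12 (95% interval 0.0021 to 0.23, adjusted p = 0.844) at day 0 and by 0.07 (-0.31 to 0.45) at day 7.

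The canonical branch (Nfkb1, Rela, Rel, Ikbkb, Ikbkg, Nfkbia, Nfkbib, Nfkbie, Tnfaip3 and Bcl3) had a median of 0.021 over 10 tested genes at day 0 and -0.12 over 9 at day 7, with 0 past the threshold on each day. Nfkb1, for p105 and p50, differed by -0.036 and -0.13 (different probes on the 2 days), and Rela, for p65, by 0.0059 and 0.055. Bcl3, for an inhibitor-like partner of p50 and p52, showed the largest difference of this list at day 0. It read 13.01 to 13.76 (median 13.35) against 12.36 to 13.09 (median 12.89), with overlap, and the difference of 0.53 ± 0.14 (SE) did not pass the threshold (limma adjusted p = 0.411). It was singled out after its value was seen, and at day 7 its difference was 0.13 (95% interval -0.64 to 0.91). The lymphoid targets of the pathway (Cxcl13, Ccl19, Ccl21a, Cxcl12, Madcam1, Icam1, Vcam1, Enpp2, Glycam1 and Chst4) had a median of -0.14 over 10 at day 0 and 0.15 over 9 at day 7, with 0 past the threshold. Cxcl13, the chemokine that draws B cells into follicles, differed by -0.28 (-1.30 to 0.74) and 0.16 (-0.96 to 1.28), and on both days its 3 highest arrays were the 3 with the most B cell marker signal.

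**Figure D4:**
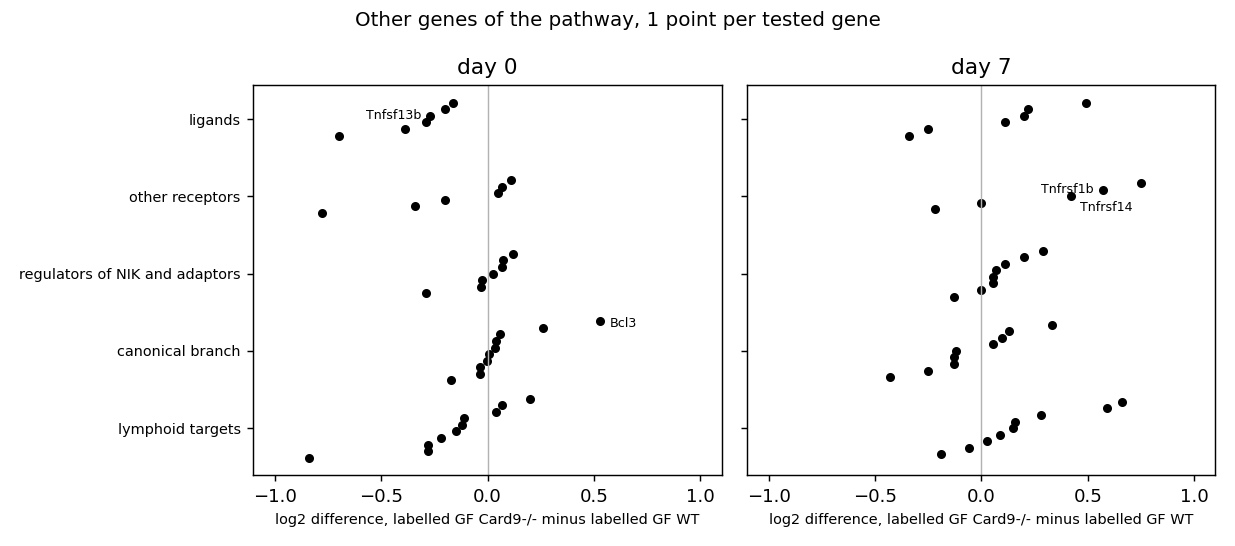
Difference between the labels (log2, labelled GF Card9-/- minus labelled GF WT, horizontal axis) of each tested gene of the 5 lists, 1 point per gene, day 0 on the left and day 7 on the right, with points stacked by size within a list. No point passed the threshold, and the named ones are Tnfsf13b (-0.27) and Bcl3 (0.53) at day 0 and Tnfrsf14 (0.42) and Tnfrsf1b (0.57) at day 7.

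The probes around Map3k14 on chromosome 11 were centred near 0 on both days. Within 1 Mb of a Map3k14 probe, 105 probes of other genes or transcripts were tested at day 0, with a median difference of 0.012, and 92 at day 7, with a median of -0.028. In limma 0 of 105 and 0 of 92 passed the threshold. An unadjusted p under 0.05 was found for 6 at day 0 and 3 at day 7, where 5.84% and 3.38% of all tested probes had one. The labels did not overlap at 0 of these probes at day 0 and at 2 of them at day 7, where 0.458% and 2.13% of all probes did not. The differences ran from -0.77 to 1.45 at day 0 and from -1.75 to 1.16 at day 7. At day 0 the lowest unadjusted p was that of the transcript BF469726, which differed by 0.39 ± 0.10 (SE, limma adjusted p = 0.357) in the same direction. Other probes named, like it, after their values were seen are those without overlap at day 7, the transcript TC1749231 (1.13 ± 0.26, SE) and Higd1b (0.26 ± 0.13), and the others with an unadjusted p under 0.05, Rprml (0.72 ± 0.27) and Lyzl6 (-0.67 ± 0.20). All 4 day 7 probes had a limma adjusted p of 0.913, as the 5′ probe did on that day, and TC1749231 and Rprml differed in the same direction as the 5′ probe and by at least as much.

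**Figure D5:**
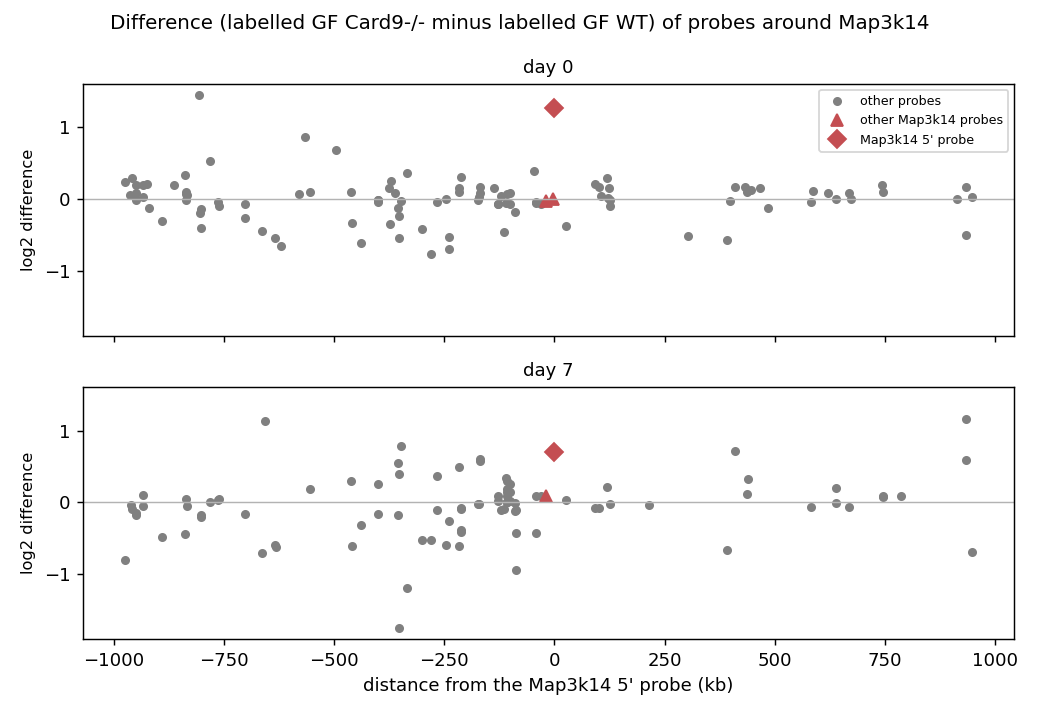
Difference between the labels (log2, labelled GF Card9-/- minus labelled GF WT, vertical axis) of the tested probes within 1 Mb of Map3k14 on chromosome 11 against their distance from its 5′ probe (kb, horizontal axis), day 0 above and day 7 below. The 5′ probe (diamond) is at 1.27 and 0.70, the other Map3k14 probes (triangles) are near 0, and the median of the other probes is 0.012 and -0.028.

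The genes whose day 0 levels varied most like the 5′ probe, once the mean of each label had been subtracted, were Pnpt1, Ranbp6, Sh3gl1, Rps15a-ps6 and Wdr20rt. Their Pearson correlations with it were 0.82, 0.79, 0.79, 0.78 and 0.77 over 13 arrays, which share slides and normalization, and they were the highest of 21483 genes. Within a label the 5′ probe varied by an SD of only 0.11 or less, so these follow small deviations. The highest of so many genes over 13 arrays can reach such correlations with no link to the probe, and a link was not tested. Of the other members, Birc2 came nearest with 0.50 and ranked 460, followed by Nfkb2 with 0.47, while Traf3 and Cd40 were at -0.14 and -0.19.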

How the data were processed

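Total colon RNA was labelled with a single dye and hybridized to Agilent arrays, 13 at day 0 and 8 at day 7, each day on its own design. The authors extracted spots with Agilent Feature Extraction 10.7.3.1 (submitters' processing notes). The intensity values they deposited are on a linear scale, before any normalization across arrays. Each spot also has a deposited p-value against background. The authors' own normalized log2 values were used as an alternative. According to their methods they used agilp, quantile normalization, limma and Benjamini-Hochberg adjustment.

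Here log2 of the processed signal was quantile normalized within each day, after which control spots and outlier flags were dropped and spots of the same probe averaged. A probe was tested when it was detected (background p under 0.05) in 60% or more of one label's arrays, with 2 or more values per label, which left 47410 probes at day 0 and 44643 at day 7. Labels were compared within each day with limma 3.58.1 (R 4.3.3, statmod 1.5.0, and the data.table package, version 1.17.8), adjusting over all tested probes at 0.05. RefSeq accessions named 16 of 22 member probes at day 0 and 13 of 15 at day 7, and the files' symbols named the others. All Map3k14 probes and the brightest probe of each other member were described. The naming rule also covered list genes and neighbours within 1 Mb past the threshold, Card9, Gapdh and the 5 genes most correlated with the 5′ probe. In any case it covered Nfkb1, Rela, Traf2, Ltb, Tnfsf13b and Cxcl13. No list gene or neighbour passed the threshold. Bcl3, Tnfrsf14, Tnfrsf1b and the single neighbours above were named after their values were seen. One gene of the B cell marker list is not reported here and was left out of its sums. The members and lists were chosen with earlier results of these data known.

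Slides and scan sessions come from the file headers: 4 slides and 2 sessions at day 0, 6 slides (2 with both labels) and 1 session at day 7. The labels name separate samples without saying that they are separate mice, so p-values measure only the spread between these samples. The number of arrays limits the precision. On simulated data the fit recovered 71% of probes changed by 1 log2 unit at day 0 and 8% at day 7. The alternatives were other normalizations, background corrections and detection filters, the authors' values, raised dim values, blocks for slide, session and replicate number, each array left out, and subsets of arrays.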

Additional observations from a re-analysis of the deposited data

Results flagged for a closer look

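One array stood apart from the others with its label at a member probe. GF WT replicate 4 of day 0 read 11.73 at the brightest Nfkb2 probe, where the nearest of the other 5 GF WT arrays read 11.59 and the farthest 11.52. The gap was 0.69 of the whole range, above the limit of Dixon's test for 6 arrays. It was 1 of 46 sets of arrays examined (the Map3k14 probes and the brightest probe of each other member, by label and day), and chance gives about 1 in 20. The Nfkb2 difference at day 0 was 0.038 on the log2 scale without that array.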

How the results depend on the processing

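The 5′ probe of Map3k14 stayed brighter in the arrays labelled GF Card9-/- under every alternative run. Its labels did not overlap on either day, so leaving out or splitting arrays could only keep it above 0. Those settings describe the size of the difference and are no further evidence of it. At day 0 its difference ran from 0.83 (normexp) to 1.33 (scan session 1 alone, 3 arrays per label) and from 1.24 to 1.29 with each array left out, and at day 7 from 0.42 (normexp) to 1.09 (replicate block, where only 2 numbers are shared) and from 0.59 to 0.81 with each array left out. At day 7 it passed the adjusted threshold under none of these. The difference between the days at the 5′ probe, with the limits given above, ran from -0.68 to -0.46. With the replicate number as a block the day 0 difference was 1.26. The replicate numbers gave no clear pairing of the arrays, with correlations of their deviations from -0.022 to 0.37 for the 6 pairs of day 0 and 0.029 and 0.11 for the 2 of day 7. The GF WT array most like a GF Card9-/- array had its number for replicates 1 and 5 of day 0 and 4 of day 7. For the rest of the pairs it had another number. Members other than the 5′ probe, list genes and neighbours had 0 calls in all settings, 2 Mb and 5 Mb included. Over all probes the day 0 count of 12 became 27 (normexp), 22 (the authors' values), 22 (well above background), 7 (replicate block) and 1 and 3 (sessions 1 and 2 alone), and ran from 8 to 16 with each array left out, while the day 7 count of 0 became 1 without GF WT replicate 1. At day 7 the brightest probes of Birc2, Relb, Nfkb2, Birc3, Chuk and Traf3 moved by more than 1 SD within the 2 slides that held both labels (0.28, 0.32, 0.24, 0.79, -0.017 and -0.20), 2 arrays per label. The 3′ probe at day 7 was at 0.33 with the replicate block. With each day 7 array left out, Ltbr ran from 0.0087 to 0.25, Traf3 from 0.014 to 0.24, Birc2 from -0.14 to 0.11 and Nfkb2 from -0.11 to 0.076. Over all the day 7 alternatives Ltbr reached -0.08. The cause of these shifts was not tested.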
